A study of Mus musculus and Oryctolagus cuniculus and Sus scrofa with 20 samples.

Results

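miR-221-3p and miR-222-3p are a pair of microRNAs (miRNAs) cut from neighbouring hairpins on the X chromosome, and they were followed across 20 small RNA libraries from male germ cells and testes. A read of 18 to 26 nt was given to a miRNA where its first 18 nt equalled those of the mouse mature sequence, and the pair are 2 of 1660 miRNA entries counted this way. Levels are reads per 1000000 miRNA reads (RPM). The question the libraries address, from the series' title, is how an X-linked miRNA family of male germ cells, the miR-506 family, arose; miR-221 and miR-222 lie outside that family.

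A miRNA of about this length guides an Argonaute protein to messenger RNAs, mainly by pairing of its bases 2 to 8, the seed, with the target's 3' untranslated region (UTR). In mouse spermatogonia miR-221 and miR-222 are known as miRNAs of the undifferentiated state, where they hold down the receptor KIT, whose appearance marks differentiation. Outside the testis the pair is abundant in fibroblasts, endothelium and many cultured lines, where it is known to repress cell-cycle inhibitors.

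The libraries came from 2 knockout lines and their control culture, from mouse germ cells along spermatogenesis, and from whole testes, each group being 1 library. The TALEN and CRISPR lines were miR-741 knockout spermatogonial stem cells (SSCs), each grown from a single picked colony after nuclease plasmids were delivered, and their control was the wild type culture. All 3 came from a C57BL/6 x DBA2 F1 male of day 15 with an actin-EGFP transgene and were plated on mouse embryonic fibroblast (MEF) feeder cells, so feeder RNA is part of what these lines can hold. The mouse series was wild type C57BL/6: cultured SSCs, pre-leptotene and leptotene spermatocytes of day 9, zygotene spermatocytes of day 13, pachytene spermatocytes and round spermatids of day 25, and mature sperm, with no age given for the SSCs and the sperm. Wild type rabbit testes were taken at days 10, 30, 60, 70, 80, 90, 110 and 180, with an exogenous spike-in added to the RNA, and wild type pig and rat testes were adult. The labels do not say how many animals or cultures went into a library. No group had a replicate, so a comparison of 2 libraries compares those libraries, and the 95% intervals given (exact Poisson for levels, Clopper-Pearson for shares, conditional binomial for ratios) cover counting error only.

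Libraries held 597732 (CRISPR line) to 25908109 (mature sperm) reads, of which 1.38% (pachytene) to 53.3% (rabbit day 10) were miRNA reads, or 196752 (CRISPR line) to 6087617 (pre-leptotene). The knocked-out miR-741-3p had 3 reads in the TALEN line and 5 in the CRISPR line, against 80096 in control SSCs. Late germ cell miRNAs (miR-34b-5p and miR-449a-5p together) stood at 5925 RPM in pachytene spermatocytes and 6718 in round spermatids, against 2 to 17 RPM in pre-leptotene, leptotene and zygotene cells and 121 in mature sperm. Their sum was 131 RPM in cultured SSCs and 17.1 in control SSCs. In the isolated germ cells and in testis, a low level of a miRNA can come from fewer cells that hold it or from less of it per cell, which cannot be told apart.

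The mature sequences show why the pair is treated together, and also why reads can be told apart. Their seeds, in capitals, are the same, while 12 of 23 positions differ outside the seed, 9 of them within the first 18 nt. Of 1738 mature mouse sequences in the RefSeq table (GRCm38.p6), 3 carry this seed; the other one is miR-1928, which at 17 nt is shorter than the reads counted. The 5p arm of miR-221 has another seed.
miR-221-3p: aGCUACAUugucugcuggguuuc
miR-222-3p: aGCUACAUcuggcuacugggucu
miR-1928: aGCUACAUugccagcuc
miR-221-5p: aCCUGGCAuacaauguagauuucugu

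On GRCm38 miR-221-3p lies at chrX:19146307-19146329 and miR-222-3p at chrX:19146901-19146923, both on the minus strand, and miR-221-5p at chrX:19146344-19146369. Their hairpins, Mir221 (19146294 to 19146388) and Mir222 (19146893 to 19146971), are separated by 504 bases, and no other gene of GENCODE vM21 overlaps that interval. The nearest protein-coding genes are 4930578C19Rik, ending at 18461397, and Tex13c3, starting at 19479420. The hairpins are shown because many miR-222-3p reads, described further on, run past the annotated mature end into them. The commonest longer read of miR-221-3p in cultured SSCs does not match its hairpin at the added base. Capitals mark the annotated mature arms.
Mir221: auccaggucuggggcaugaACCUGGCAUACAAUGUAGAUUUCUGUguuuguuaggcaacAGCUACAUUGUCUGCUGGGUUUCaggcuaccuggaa
Mir222: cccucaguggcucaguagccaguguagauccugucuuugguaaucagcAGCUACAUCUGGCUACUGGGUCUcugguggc

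The seed's complement, ATGTAGC, was searched on the transcript strand in the 3' UTR of Kit, the receptor named above. The longest annotated Kit 3' UTR, of 2177 nt, holds 2 matches, at nt 447 and 1978 of the UTR, on the plus strand of GRCm38 in the windows chr5:75654981-75655010 and chr5:75656512-75656541, with the match in capitals.
Kit window at nt 447: atgggagatatATGTAGCaagactagaaaa
Kit window at nt 1978: taaatattgaaATGTAGCaataatgtcttt
Of 1347 3' UTRs within 10% of that length, 203 (15.1%) hold the motif at least once. A match is a description of the letters, and Kit RNA was not measured in these libraries.

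Across the mouse series, miR-221-3p was abundant in cultured SSCs, scarce in isolated germ cells from pre-leptotene to round spermatid, and abundant again in mature sperm. Cultured SSCs had 2252 RPM (11552 reads), pre-leptotene cells 3.45 (21 reads), leptotene cells 7.90 (38), zygotene cells 18.05 (80), pachytene cells 35.0 (11), round spermatids 12.2 (6) and mature sperm 1005 (3572). For miR-222-3p, cultured SSCs had 615 RPM (3153 reads), pre-leptotene cells 1.81 (11 reads), leptotene cells 0.62 (3), zygotene cells 1.58 (7), pachytene cells 0 reads, for which the limit of 3 reads is 9.55 RPM, round spermatids 2.03 (1 read) and mature sperm 857 (3047). Thus each of the 5 isolated libraries between SSCs and sperm lay far below both ends of the series for each miRNA.

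**Figure D1:**
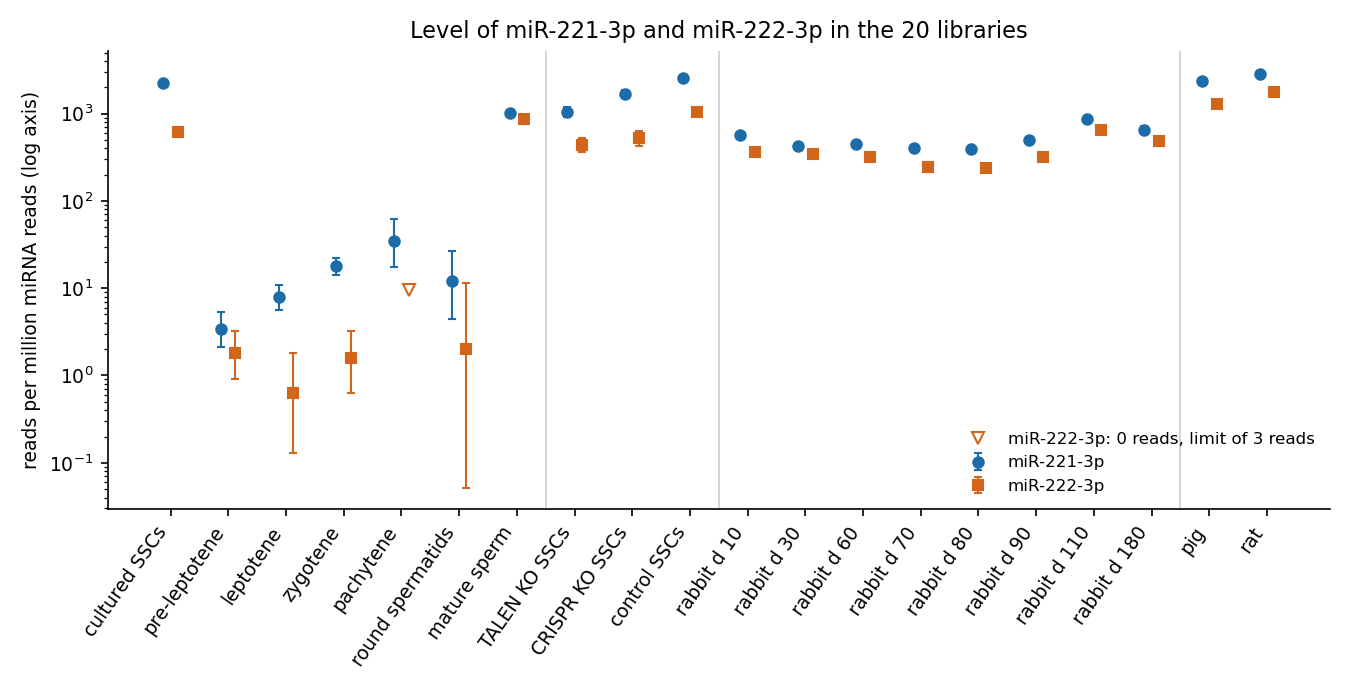
RPM (log axis) of miR-221-3p (circles) and miR-222-3p (squares) in each of the 20 libraries, with exact 95% Poisson intervals. The open triangle is the limit of 3 reads, 9.55 RPM, for the 0 reads of miR-222-3p in pachytene spermatocytes; spermatocytes and round spermatids lie at or below 35.0 RPM, while the other libraries lie at 238 RPM or above.

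In pre-leptotene spermatocytes both were far lower than in cultured SSCs. miR-221-3p was at 3.45 RPM in pre-leptotene spermatocytes, against 2252 in cultured SSCs, a log2 change of -9.35 (95% interval -10.04 to -8.74), which is 653-fold lower. miR-222-3p had 1.81 against 615 RPM, a log2 change of -8.41 (-9.41 to -7.57), 340-fold lower. With counts of 0 set to 3 reads, they were the lowest and 3rd lowest of the 333 entries that reached 100 reads in either library. These ranks depend on that setting. For example, miR-329-5p was at 204 RPM in cultured SSCs and 0 in pre-leptotene spermatocytes, and its real fall may be larger. miR-221-5p, the other arm of the first hairpin, changed by -6.39 (-7.07 to -5.79), with 22 reads against 1556. A 4-fold fall was common at this step: 180 of the 333 entries, 54.1%, were at least 4-fold lower in pre-leptotene spermatocytes and 12 higher, and the median log2 change was -2.30. With TMM factors (edgeR's trimmed mean scaling), 82 entries were lower and 52 higher, the median was -0.30, and the changes of miR-221-3p and miR-222-3p were -7.35 and -6.41.

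The SSCs were grown in culture and the spermatocytes were isolated from testes, so culture and stage cannot be told apart here. The feeder or stromal miRNAs fell alongside: 3 of 3 measured (miR-199a-5p, miR-199a-3p with miR-199b-3p, and miR-214-3p, miRNAs of fibroblasts and mesenchyme) were at least 4-fold lower, and their sum was 1447 RPM in pre-leptotene spermatocytes against 19289 in cultured SSCs, with none at 0. The protocol names feeder cells for SSCs of the F1 male, and whether the C57BL/6 SSCs were grown on them is not stated. The epithelial list summed to 292 RPM in pre-leptotene spermatocytes against 3405 in cultured SSCs, and the blood list to 8.54 against 183. The Sertoli cell or gonadal list (miR-202-5p and miR-202-3p) went the other way, with 138 RPM in pre-leptotene spermatocytes against 1.36 in cultured SSCs. The part of these cells in the result was not tested. Among miRNAs linked by the literature to SSCs, 6 of 7 fell by 4-fold or more, and the list's median log2 change was -3.08 beside -2.30 for all entries. miR-21a-5p, an abundant miRNA of cultured SSCs, had 7187 RPM in pre-leptotene spermatocytes against 49821 in cultured SSCs, and miR-146a-5p, a miRNA of undifferentiated spermatogonia, had 71.5 against 4289. The exception was miR-183-5p, at 8242 against 22745 RPM. Of let-7, a family linked to differentiation, 1 of 7 entries fell by 4-fold or more and 0 rose, and the median was -1.19.

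Between the isolated stages the counts were too small for the call, which needs 100 reads in 1 library. miR-221-3p was higher in leptotene than in pre-leptotene spermatocytes by 1.195 on the log2 scale (0.39 to 2.04; 38 against 21 reads), and higher in zygotene than in leptotene by 1.19 (0.62 to 1.79; 80 against 38 reads), both intervals lying above 0. At the second of these steps the median of all entries was 0.71, and the Sertoli cell or gonadal list summed to 3391 RPM in zygotene against 153 in leptotene spermatocytes; its part was not tested. In RPM the pachytene over zygotene difference of miR-221-3p was 0.96 (-0.10 to 1.87), and the round spermatid over pachytene difference was -1.52 (-3.24 to 0.04). Neither was detectable in RPM at this depth. The direction of the pachytene step depended on the denominator: miRNA reads were 28.9% of zygotene and 1.38% of pachytene reads. With all reads in place of miRNA reads as the denominator, miR-221-3p was 5.22 in zygotene and 0.48 in pachytene spermatocytes. Round spermatids had 0.25 on that scale. For miR-222-3p, with 0 to 11 reads per library, the leptotene over pre-leptotene and zygotene over leptotene intervals both held 0.

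Mature sperm held both members again. miR-221-3p had 1005 RPM (3572 reads) in mature sperm against 12.2 (6 reads) in round spermatids, a log2 change of 6.36 (5.24 to 7.81). miR-222-3p had 857 RPM (3047 reads) against 2.03 (1 read), a log2 change of 8.72 (6.24 to 14.02). This was the highest of 204 entries with counts of 0 set to 3 reads. The rank rests on 1 spermatid read and on that setting, so it does not show the largest rise. An entry with 0 spermatid reads was divided by 3 reads, and its real rise may be larger. miR-221-5p had 2335 reads in mature sperm against 0 in the spermatid library, and at the limit of 3 reads there it was at least 108-fold higher in sperm. Of the 204 entries 46, or 22.5%, were at least 4-fold higher in sperm and 41 lower, with a median log2 change of -0.19. Scaled by all reads instead, 126 were higher and 7 lower, the median was 2.53, and the changes of miR-221-3p and miR-222-3p were 9.08 and 11.44.

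Markers of some other cells were also higher in the sperm library, though not of all. Of 7 epithelial miRNAs, 6 were at least 4-fold higher, and the list summed to 16641 RPM in mature sperm against 323 in round spermatids; miR-200a-3p, an epithelial miRNA, had 7254 against 34.6. The blood list had 3 of 3 tested entries higher and summed to 1376 RPM in mature sperm against 65 in round spermatids, led by the erythroid miR-451a at 1003 RPM in mature sperm. The feeder or stromal list had 1 of 3 higher, with a sum of 1135 in mature sperm against 313. The endothelial miR-126a-3p was at 218 RPM in mature sperm against 159 in round spermatids, short of 4-fold. The Sertoli cell or gonadal list was lower, with a sum of 27.6 RPM in mature sperm against 274 in round spermatids. The part of these cells in the sperm values of miR-221 and miR-222 was not tested.

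**Figure D2:**
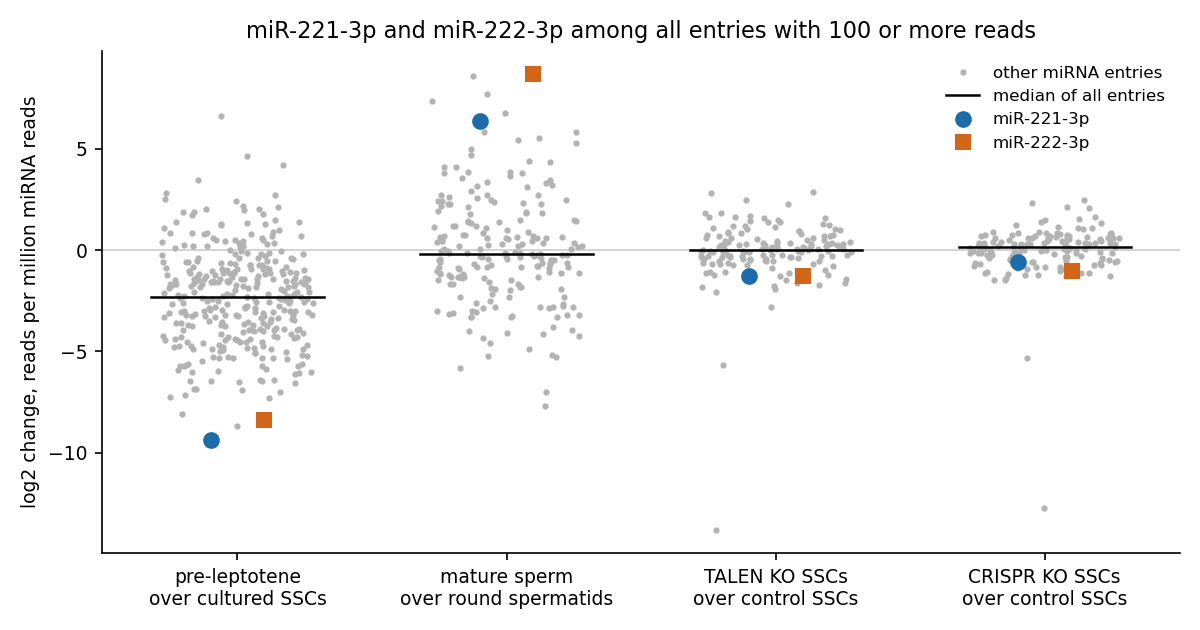
Log2 change in RPM in 4 comparisons of 2 libraries, each grey point being 1 entry that reached 100 reads in either library and the black line their median. miR-221-3p (circle) and miR-222-3p (square) lie at -9.35 and -8.41 in pre-leptotene over cultured SSCs, at 6.36 and 8.72 in mature sperm over round spermatids, and below the median in both knockout lines; the lowest grey point of each knockout line is miR-741-3p itself.

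In the miR-741 knockout lines both members were lower than in the control culture they derive from. miR-221-3p had 1046 RPM (268 reads) in the TALEN line and 1692 (333 reads) in the CRISPR line, against 2532 (1186 reads) in control SSCs. miR-222-3p had 437 (112 reads) in the TALEN line and 518 (102 reads) in the CRISPR line, against 1042 (488 reads) in control SSCs. Levels in the knockout lines thus lay below the control for each miRNA, and the intervals did not overlap with it.

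In the TALEN line the log2 changes against control SSCs were -1.28 (-1.47 to -1.08) for miR-221-3p and -1.25 (-1.56 to -0.95) for miR-222-3p, both past the 2-fold call. In that comparison 23 of 150 entries, 15.3%, were at least 2-fold lower, and the median of all was 0.03. In the CRISPR line the changes were -0.58 (-0.76 to -0.40) for miR-221-3p, short of 2-fold, and -1.01 (-1.33 to -0.70) for miR-222-3p, just past it but at -0.98 when scaled by all reads or by hairpin reads, while 16 of 147 entries, 10.9%, were at least 2-fold lower and the median was 0.15. With TMM factors 30 entries were lower and 7 higher in the CRISPR line, in place of 16 lower and 14 higher. miR-221-5p had 40 reads in the TALEN line and 30 in the CRISPR line, against 154 in control SSCs, with log2 changes of -1.08 and -1.11. Both lines are set against the same control library, so their changes are not independent.

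Several lists moved in the knockout lines beside the pair. The feeder or stromal list summed to 5645 RPM in the TALEN line and 7481 in the CRISPR line, against 16374 in control SSCs, with 2 of 2 tested entries at least 2-fold lower in the TALEN line and 1 of 2 in the CRISPR line. let-7 summed to 22394 RPM in the TALEN line and 22089 in the CRISPR line, against 35575 in control SSCs, with median log2 changes of -0.61 and -0.63. The epithelial list was higher, at 2965 RPM in the TALEN line and 2130 in the CRISPR line against 1161 in control SSCs. Only 1 of its 7 entries reached 100 reads in each comparison, and it was at least 2-fold higher. The blood list was also higher, at 406 and 554 RPM against 109. These blood sums rest on 104, 109 and 51 reads, and 0 blood entries reached 100 reads. The part of feeder or other cells in the lower miR-221 and miR-222 was not tested. Of the SSC-linked list, 5 entries reached 100 reads: in the TALEN line 1 was at least 2-fold higher and 1 lower, with a median of -0.27, and in the CRISPR line none moved 2-fold, with a median of 0.12. The list summed to 98075 RPM in the TALEN line and 103963 in the CRISPR line, against 100045 in control SSCs.

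The C57BL/6 and F1 wild type SSC cultures were set side by side as well. miR-221-3p was 2252 RPM in C57BL/6 SSCs and 2532 in the F1 control, a log2 change of -0.17 (-0.26 to -0.08), and miR-222-3p was 615 against 1042, a change of -0.76 (-0.90 to -0.62). Neither passed 4-fold, as was so for all but 14 of 320 entries (4.38% passed), and the median of all was 0.32. This comparison uses the same control library as the knockout lines, so it is not independent of theirs.

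miR-221-3p was higher in each of the 4 cultured SSC libraries (1046 to 2532 RPM) than in each of the 6 isolated ones (3.45 to 1005), though the TALEN line and mature sperm had overlapping intervals. This pattern held for 136 of 362 mouse entries, 37.6%. miR-222-3p did not show it, because mature sperm (857) lay above C57BL/6 SSCs and both knockout lines. Without mature sperm both members showed it, as did 151 of 362 entries, 41.7%.

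The miRNAs whose profile over the 10 mouse libraries was most like the mean of the pair were miR-10a-5p (Pearson r 0.96), miR-125b-5p (0.94), miR-221-5p (0.93), miR-10a-3p (0.92), miR-125b-1-3p (0.92) and miR-24-3p (0.92), on log2 of the level plus 1 and among 360 entries with a median r of 0.42. The 10 libraries share depth and composition effects, so r is a description. miR-10a, encoded in the HoxB cluster, was measured as its 5p arm at 35186 RPM in cultured SSCs; pre-leptotene cells had 2611, round spermatids 6094 and mature sperm 89930. miR-125b-5p, of the let-7 and miR-99 clusters, had 4020 in cultured SSCs, while pre-leptotene cells had 795, round spermatids 437 and mature sperm 7411. Both were lower in the isolated stages before sperm than in SSCs, at 437 RPM or more in the libraries named, where miR-221-3p and miR-222-3p were at or below 35.0.

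In rabbit testis both members were present at every age, and in RPM both were lowest at day 80 and highest at day 110. miR-221-3p had 573, 426, 444, 408, 395, 496, 874 and 657 RPM at days 10, 30, 60, 70, 80, 90, 110 and 180. miR-222-3p had 359, 341, 315, 247, 238, 317, 653 and 485 at the same ages. In RPM each member was lower at day 80 than at day 10, higher at day 110 and lower again at day 180. From day 30 to day 60 they differed, with miR-221-3p going from 426 to 444 RPM and miR-222-3p from 341 to 315.

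No linear trend with age was found. The slope per doubling of age was 0.0069 log2 units (SE 0.109) for miR-221-3p, with an adjusted p of 0.976 by edgeR's quasi-likelihood test, and 0.038 (SE 0.124), adjusted p 0.866, for miR-222-3p. The 95% intervals were -0.26 to 0.27 and -0.27 to 0.34 for all 8 ages with TMM scaling. They hold for that setting only: without day 10 the slopes were 0.339 for miR-221-3p and 0.299 for miR-222-3p. The test called 76 of 298 entries, 25.5%, with 33 rising and 43 falling. By rank, Spearman's rho with age over the 8 libraries was 0.405 for miR-221-3p (exact permutation p 0.327, adjusted 0.473; Pearson r 0.467, exact p 0.246, adjusted 0.332), and 0.286 for miR-222-3p (exact p 0.501, adjusted 0.630; r 0.479, exact p 0.233, adjusted 0.321). Without days 10 and 180, r was 0.688 for miR-221-3p and 0.526 for miR-222-3p over 6 ages. For miR-221-5p rho was 0.929 (exact p 0.0022, adjusted 0.021), while Pearson's r was 0.679 (exact p 0.073, adjusted 0.153) and the edgeR slope of 0.16 had an adjusted p of 0.339. Its rank call was lost without days 10 and 180 (rho 0.943, adjusted exact p 0.118; r 0.852) and its rho was -0.643 per all reads (adjusted exact p 0.141). Of all entries 23.5% passed the rank test in either direction.

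The direction in rabbit depended on the denominator. miRNA reads were 53.3% of all reads at day 10 and 7.02% at day 180, and per 1000000 of all reads miR-221-3p was 305, 219, 231, 199, 172, 177, 88.7 and 46.1 over the 8 ages. On that scale rho was -0.952 for miR-221-3p (exact permutation p 0.0011, adjusted 0.0063; r -0.948) and -0.976 for miR-222-3p (exact p 0.0004, adjusted 0.003; r -0.957). Falling was common there: 52.0% of entries passed the rank test downward, and the median rho of all entries was -0.81, against 0.14 on the RPM scale. The edgeR slopes with all reads as library size were -0.50 and -0.51, with adjusted p of 0.180 each.

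**Figure D3:**
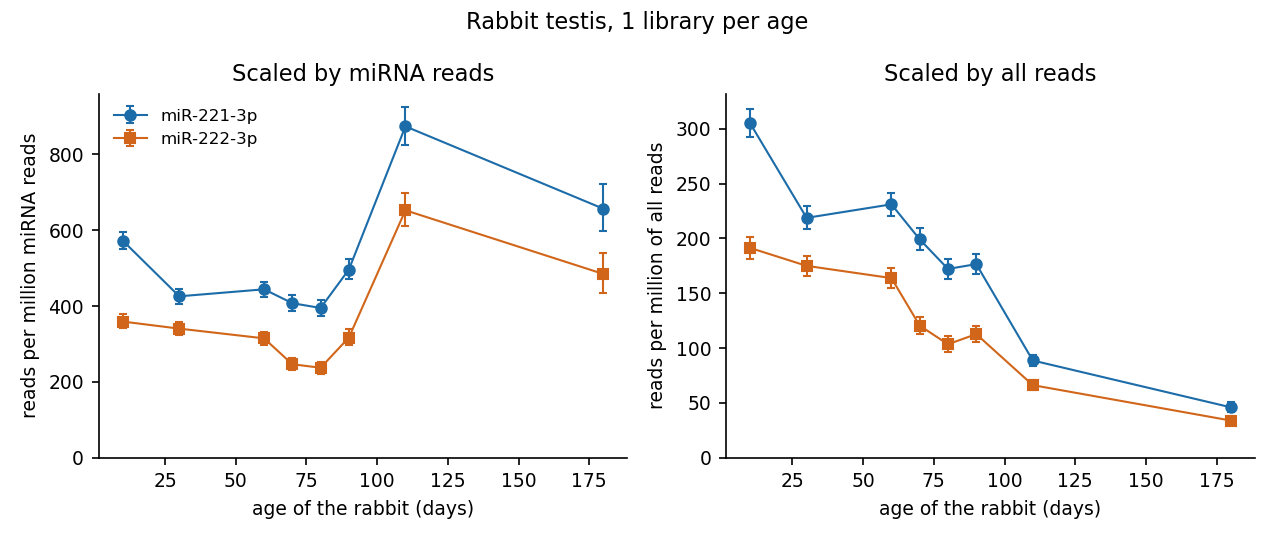
Level of miR-221-3p (circles) and miR-222-3p (squares) in rabbit testis against age in days, in RPM on the left and per 1000000 of all reads on the right, 1 library per age with exact 95% Poisson intervals. On the left both peak at day 110 (874 and 653); on the right miR-221-3p was 305 at day 10 and 46.1 at day 180.

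Marker miRNAs of other cells also moved with age in rabbit testis. The feeder or stromal list summed to 38777 RPM at day 10, 23362 at day 60, 15025 at day 110 and 10262 at day 180, while the late germ cell list summed to 22, 31, 7034 and 9791 at those ages. The endothelial miR-126a-3p was 3463, 1862, 4568 and 6559, and the epithelial list 219, 335, 4875 and 8173. The part of these cells in the values of miR-221 and miR-222 was not tested.

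In RPM, the adult pig and rat testes held the pair at levels near or above those of cultured SSCs. In rat, miR-221-3p had 2811 RPM (702 reads) and miR-222-3p 1774 (443 reads), the highest RPM of each among the 20 libraries. In pig they had 2360 (2846 reads) and 1284 (1548 reads). For miR-221-3p, the intervals of neighbours overlapped from rat through control SSCs and pig to C57BL/6 SSCs, so their order is not settled by counting alone; for miR-222-3p the rat, pig, control SSC and sperm intervals did not overlap between neighbours in RPM. That order changed with the denominator: per 1000000 hairpin reads miR-222-3p was 1108 in pig and 963 in rat. Per 1000000 of all reads miR-222-3p was 119 in pig, 73.5 in rat and 118 in mature sperm, against 337 in control SSCs. The place of rat changed for miR-221-3p too. Per 1000000 hairpin reads miR-221-3p was 1525 in rat and 2038 in pig, against 2067 in control SSCs and 1921 in cultured SSCs. These testes also held Sertoli, stromal and endothelial miRNAs: the miR-202 pair summed to 12661 RPM in pig and 17156 in rat, miR-126a-3p was 7916 and 1914, and the stromal list 16564 and 7795. Their part was not tested. miRNA reads were 9.24% of the pig and 4.14% of the rat library, and per 1000000 of all reads miR-221-3p was 218 in pig and 116 in rat, against 569 in cultured SSCs.

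The balance within the pair differed between sources. As a share of the pair's reads, miR-221-3p made up 54.0% (52.8 to 55.2) in mature sperm, against 78.6% (77.9 to 79.2) in cultured SSCs. It was 70.5% in the TALEN line and 76.6% in the CRISPR line, against 70.8% in control SSCs, and 55.6% to 62.5% over the rabbit ages, 64.8% in pig and 61.3% in rat. In leptotene and zygotene spermatocytes the share was 92.7% and 92.0%, from only 41 and 87 reads of the pair. Sperm and cultured SSCs thus differed in balance by more than counting error.

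The arms of miR-221 also differed. miR-221-5p made up 39.5% (38.3 to 40.8) of the reads of both arms in mature sperm, against 11.9% (11.3 to 12.4) in cultured SSCs. It was 13.0% in the TALEN line and 8.26% in the CRISPR line, against 11.5% in control SSCs. In zygotene spermatocytes it was 39.8% (31.5 to 48.7) of 133 reads. From fewer reads, it was 51.2% (35.5 to 66.7) in pre-leptotene and 41.5% (29.4 to 54.4) in leptotene spermatocytes, with 22 and 27 reads of miR-221-5p. Pachytene spermatocytes and round spermatids had 0 reads of miR-221-5p beside 11 and 6 of miR-221-3p. In rabbit testis the share was 14.7% at day 10, 21.9% at day 90 and 19.5% at day 180, and it was 22.3% in pig and 19.95% in rat. For the other miRNAs with both arms in the table and at least 100 reads, the median share of the weaker arm was 0.449% in mature sperm and 3.07% in cultured SSCs. The annotated miR-221-5p is 26 nt, the longest read counted, so longer forms of it were missed.

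**Figure D4:**
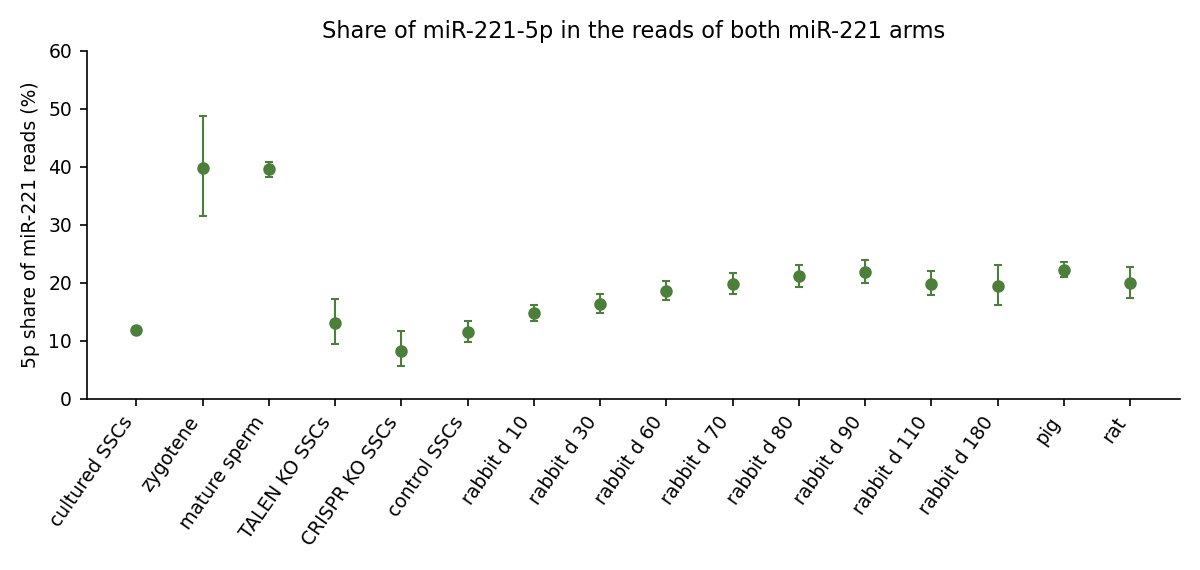
Share of miR-221-5p in the reads of both miR-221 arms (%), with 95% Clopper-Pearson intervals, in the 16 libraries with at least 100 such reads. Zygotene spermatocytes and mature sperm lie at 39.8% and 39.5%, above the 8.26% to 13.0% of the cultured SSC libraries and the 14.7% to 22.3% of the testes.

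The 3' ends of the reads separated the members from each other and sperm from SSCs. In mature sperm 15.4% (14.1 to 16.7) of miR-222-3p reads were longer than the annotated 23 nt, against 50.9% (49.1 to 52.7) in cultured SSCs. The annotated form made up 25.6% of miR-222-3p reads in mature sperm and 36.6% in cultured SSCs. In mature sperm 24.5% of reads were the 21 nt form that lacks the last 2 bases, while in cultured SSCs 16.1% ended in 1 more base and 18.7% in 2 more bases, both matching the hairpin. The forms are shown with the added bases in capitals.
miR-222-3p, 21 nt: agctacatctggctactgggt
miR-222-3p, 23 nt: agctacatctggctactgggtct
miR-222-3p, 24 nt: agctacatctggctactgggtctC
miR-222-3p, 25 nt: agctacatctggctactgggtctCT
For all entries with at least 100 reads, the median share longer than the annotated form was 18.1% in mature sperm and 20.5% in cultured SSCs.

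miR-221-3p showed the same shift between these libraries. Its commonest read in mature sperm was 22 nt (40.4% of reads), against 23 nt in cultured SSCs (40.7%), and 7.87% of reads in mature sperm were longer than 23 nt, against 25.0% in cultured SSCs. The commonest longer read in cultured SSCs was the 23 nt form with an added T (15.6% of reads), where the hairpin has A. The form with that A made up 3.50%. Reads of miR-221-3p that ended in added T not matching the hairpin made up 21.6% in cultured SSCs and 11.5% in mature sperm. Reads of miR-222-3p that ended in added A made up 17.1% in mature sperm and 6.53% in cultured SSCs. That share did not separate sperm from every SSC library: it was 3.57% in the TALEN line (112 reads) and 15.7% in the CRISPR line (102 reads), against 6.56% in control SSCs. In rabbit testis 74.1% (day 10) to 61.2% (day 180) of miR-222-3p reads ran past 23 nt, in pig 62.1% and in rat 26.2%, where miR-221-3p had 3.42%. The 5' end was steadier: 99.8% of miR-221-3p and 96.8% of miR-222-3p reads in cultured SSCs, among those starting within 3 nt of it, began at the annotated base.

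**Figure D5:**
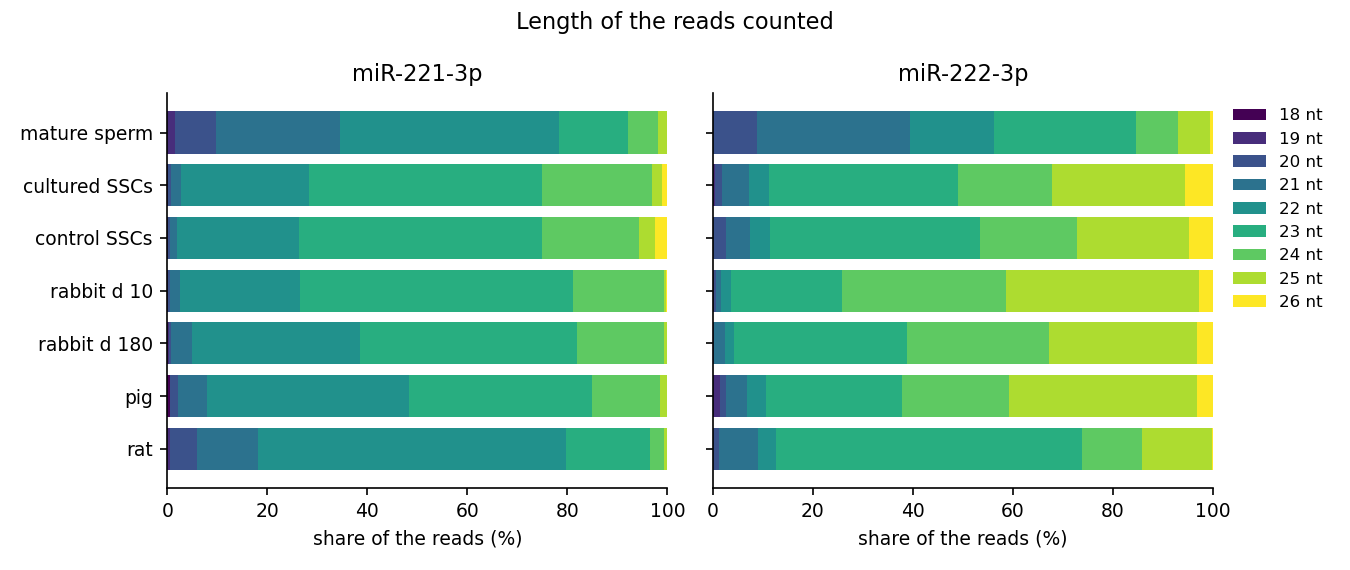
Share of reads (%) by read length from 18 to 26 nt for miR-221-3p (left) and miR-222-3p (right) in 7 libraries, each bar summing to 100%. Bars of mature sperm are shifted to shorter reads than those of the SSC libraries. The share of reads above 23 nt is larger for miR-222-3p than for miR-221-3p in each of the 7.

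In pre-leptotene spermatocytes the few reads of miR-222-3p were also unlike those of SSCs: 10 of 11 were a single 20 nt sequence. miR-221-3p had 16 of 21 reads as the 22 nt form there. Counting only reads that hold the whole annotated sequence left 3 of these miR-221-3p reads and 1 miR-222-3p read in pre-leptotene spermatocytes, and the log2 changes over cultured SSCs were then -11.57 (-13.85 to -10.02) and -11.76 (-17.07 to -9.28). For mature sperm over round spermatids, with 372 against 6 such reads, the change of miR-221-3p was then 4.01 (2.87 to 5.46).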

How the data were processed

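The authors deposited, for each of the 20 libraries, distinct read sequences and their read counts, not normalised. Per the submitters' processing notes, Bowtie and the builds mm10, rn6, susScr3 and OryCun2.0 were used, without roles; trimming is not given in the sources used here. Mature sequences came from RefSeq (GRCm38.p6), and all species were matched to the mouse sequences by their first 18 nt. Entries sharing those bases were joined. Their summed reads are the denominator and were 54.3% (rat) to 91.8% (rabbit day 70) of reads that lie in GENCODE vM21 hairpins. Changes were called at 4-fold (stages, SSC cultures) or 2-fold (knockouts) with at least 100 reads in 1 library; a count of 0 was set to 3. Rabbit slopes on log2 age used edgeR 4.0.16 (TMM, at least 10 reads in 2 libraries, Benjamini-Hochberg over all entries), with rank permutation tests over 8 ages; steps were tested on simulated data. Other tools were R 4.3.3, DESeq2 1.42.0, Python 3.11.15 and scipy 1.17.1. Named are the pair, miR-221-5p, members of 10 marker and pathway lists (41 of 50 miRNAs in the table) and the 6 entries most alike in profile. The pair, the lists and the alternatives were chosen with earlier results of these data known. The spike-in was not used here. With rabbit ages as the only replication, p-values rest on 1 library per age.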

Additional observations from a re-analysis of the deposited data

How the results depend on the processing

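Of the log2 changes of miR-221-3p, miR-222-3p and miR-221-5p under other scalings, filters and matching, 131 kept direction and call and 4 lost only the 2-fold call: miR-222-3p in the CRISPR line per all reads (-0.98) and per hairpin reads (-0.98, an alternative chosen after seeing the data), and, with reads of 20 to 24 nt, miR-221-5p in the TALEN line (-0.83) and the CRISPR line (-0.61), since its 26 nt form is then not counted. In rabbit the slopes turned round with all reads as library size (-0.50, -0.51 and -0.32 for miR-221-3p, miR-222-3p and miR-221-5p), as did rho (-0.952 and -0.976), and miR-221-3p did with no filter (-0.021). Leaving out 1 age gave slopes of -0.054 (without day 110) to 0.339 (without day 10) for miR-221-3p and -0.035 to 0.299 for miR-222-3p; the cause was not tested. Counts of entries depend more on the settings. Pre-leptotene spermatocytes had 180 lower than cultured SSCs, but 99 with DESeq2 size factors and 274 with no filter, and 12 higher, but 24 to 52 under other scalings. Sperm had 41 lower than round spermatids, but 120 with no filter; the CRISPR line had 16 lower and 14 higher, but 27 and 9 with DESeq2 size factors and 39 and 68 with no filter; the TALEN line had 23 lower and 24 higher, but 64 and 86 with no filter. Rabbit calls were 33 rising and 43 falling, but 4 and 19 with all reads as library size, 16 rising without day 30 and 26 falling without day 180. No paired analysis was possible because each group holds 1 library. Depth limits miR-222-3p most: it had 0 to 11 reads in the 5 isolated stages before sperm.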
